A study of Homo sapiens with 15 samples.

Results

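ATP1B1, ATP1B3 and FXYD3 encode small subunits of the sodium pump, and their mRNA levels were followed in LNCaP cells after knockdown of PALI1, G9a, JARID2 or SUZ12. The rows of these 3 genes were taken by name from an RPKM table of 26443 genes with values. They were chosen by their measured RPKM values in this same table, so their levels and differences are given as a description, without a test. Tests are given only for genes outside the 3. The lists of those genes were also drawn up with earlier results of these data known, and genes are named from them by small p values. Their p values are therefore not independent of the choice. The 3 rows did not behave alike. ATP1B1 mRNA was 6.43-fold lower in shJarid2 cells and 3.32-fold lower in shG9a cells than in pLKO cells, but about level with pLKO in shPALI1 cells. FXYD3 mRNA was 4.42-fold lower in shPALI1 cells and near the pLKO level under the other 3 hairpins, and ATP1B3 mRNA was 1.48-fold higher in shJarid2 cells.

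LNCaP is an androgen-responsive human prostate cancer cell line, established from a lymph node metastasis. RNA sequencing had been done on 5 groups of 3 libraries each: cells carrying a short hairpin RNA against PALI1 (shPALI1), G9a (shG9a), JARID2 (shJarid2) or SUZ12 (shsuz12), and cells carrying the pLKO control. All groups were the same line, kept in RPMI medium with serum and infected with lentivirus for 4-5 days. SUZ12 is a core subunit of the Polycomb repressive complex PRC2, which methylates histone H3 at lysine 27; JARID2 and PALI1 are accessory subunits of PRC2, and G9a methylates histone H3 at lysine 9. The labels name 1 hairpin per target, so an effect of the target and an effect of that hairpin's sequence on other transcripts cannot be told apart. Whether replicates came from separate cultures is not stated. Every p value below sets a difference against the scatter of these libraries alone, and that scatter may be technical.

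The sodium pump, or Na,K-ATPase, uses ATP to move sodium out of the cell and potassium in, and so keeps up the gradients that sodium-coupled transporters, potassium channels and cell volume depend on. Its catalytic α subunit carries the ion sites and the ATP site. Its β subunit is a glycoprotein with a single membrane span that the α subunit needs to fold and to reach the plasma membrane, and β subunits also take part in adhesion between epithelial cells. Small FXYD proteins join the α-β pair in some tissues and change its affinity for ions. ATP1B1 encodes β1, the widespread epithelial form, ATP1B3 encodes β3, and FXYD3, also called Mat-8, encodes a FXYD protein found in several epithelial tumours.

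The genes lie apart in the genome. On GRCh38, with GENCODE v29 as annotation, ATP1B1 spans chr1:169105697-169132722, ATP1B3 spans chr3:141876124-141926514 and FXYD3 spans chr19:35115879-35124324, all on the plus strand and all protein coding. PRC2 in mammals is known to bind mostly at promoters rich in CpG dinucleotides, so the promoters are shown; chromatin was not measured in these samples, and nothing about binding follows from the letters. RefSeq promoter windows on GRCh38.p14, from 250 bases before to 50 bases after the annotated start, were found for 3 of 3 genes. The 250 bases before the start are printed 5′ to 3′ on the plus strand, at chr1:169106440-169106689 for ATP1B1, chr3:141876393-141876642 for ATP1B3 and chr19:35117750-35117999 for FXYD3. Capitals mark GC boxes (GGGCGG or its reverse complement CCGCCC) and CCAAT boxes (CCAAT or ATTGG).
ATP1B1: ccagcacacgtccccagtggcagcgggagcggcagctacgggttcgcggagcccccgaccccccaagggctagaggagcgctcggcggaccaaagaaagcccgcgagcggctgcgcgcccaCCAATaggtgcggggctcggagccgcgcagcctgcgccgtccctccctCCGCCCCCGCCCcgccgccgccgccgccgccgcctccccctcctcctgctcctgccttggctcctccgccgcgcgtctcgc
ATP1B3: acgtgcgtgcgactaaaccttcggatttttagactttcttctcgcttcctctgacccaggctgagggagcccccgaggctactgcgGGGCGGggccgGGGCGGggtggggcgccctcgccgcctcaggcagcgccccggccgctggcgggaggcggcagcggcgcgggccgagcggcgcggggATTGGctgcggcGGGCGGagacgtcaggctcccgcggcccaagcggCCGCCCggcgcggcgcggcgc
FXYD3: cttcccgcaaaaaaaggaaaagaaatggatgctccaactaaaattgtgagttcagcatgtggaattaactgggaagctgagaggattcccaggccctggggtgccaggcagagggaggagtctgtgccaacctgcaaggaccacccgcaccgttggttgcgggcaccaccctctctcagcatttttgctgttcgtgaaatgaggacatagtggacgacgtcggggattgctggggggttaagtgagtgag

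Each window describes 1 RefSeq start that lies inside the GENCODE locus, past its first base; the loci have 3 (ATP1B1), 10 (ATP1B3) and 14 (FXYD3) annotated transcripts, and sequence at other starts is not shown. The windows of both β genes held more CpG than that of FXYD3. The 300-base windows held 41 CpG for ATP1B1, 45 for ATP1B3 and 9 for FXYD3, against a median of 14 over 35116 windows in the RefSeq table. As many CpG or more were found in 6.69% of all windows for ATP1B1, in 3.48% for ATP1B3 and in 58.4% for FXYD3. ATP1B1 had 2 GC boxes, at positions -81 and -75 counted from the start, and ATP1B3 had 4. FXYD3 had 0 GC boxes, and 45.0% of all windows held at least 1. A CCAAT box, present in 34.6% of all windows, stood at position -129 of ATP1B1 and -67 of ATP1B3, with 0 in the FXYD3 window. Both strands were also searched for the androgen receptor half-site AGAACA (14.8% of windows), which matched once in ATP1B3, at position 33, and once in FXYD3 across the start itself. TATAAA (11.5% of windows) and the E-box CACCTG (20.6% of windows) had no match in any of the 3 windows. The searched words did not overlap each other in these windows. A match is a description of letters, and a missing match says only that these letters are not in this window.

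Estimated depth was 10.56 to 19.33 M reads per library. Each hairpin lowered the RNA it was aimed at. PALI1 is made from the LCOR locus, which the table lists as C10orf12 and LCOR: C10orf12 was 0.964 ± 0.272 RPKM in shPALI1 and 4.05 ± 0.345 RPKM in pLKO, and LCOR was 3.09 ± 0.28 and 5.15 ± 0.823 RPKM (mean ± SD, n = 3 each). EHMT2, the gene of G9a, was 0.955 ± 0.0283 RPKM in shG9a against 3.72 ± 0.391 RPKM in pLKO. JARID2 was 1.58 ± 0.225 RPKM in shJarid2 against 8.62 ± 0.386 RPKM in pLKO, and SUZ12 was 2.53 ± 0.222 RPKM in shsuz12 against 20.2 ± 2.13 RPKM in pLKO. These falls passed at limma adjusted p values of 0.00013 (C10orf12), 0.0067 (LCOR), 2.1e-08 (EHMT2), 7.5e-10 (JARID2) and 7.1e-10 (SUZ12). EHMT2 also fell in shJarid2 (2.66 RPKM, adjusted p = 0.00099) and in shsuz12 (2.99 RPKM, adjusted p = 0.015), the second call being lost with median ratio scaling (adjusted p = 0.082), in TPM (0.16) and without pLKO replicate 1 (0.074). In shsuz12, JARID2 rose to 12.2 RPKM (limma adjusted p = 0.00022) and LCOR to 8.12 RPKM (0.0051). Of 10 LNCaP and luminal prostate markers, all were tested, and their summed level was 927 to 1045 RPKM in shPALI1, 1047 to 1096 in shG9a, 1796 to 2017 in shJarid2, 1393 to 1480 in shsuz12 and 2039 to 2207 in pLKO. Much of that sum was KLK3, the gene of prostate-specific antigen, at 300 RPKM in shPALI1, 364 in shG9a, 614 in shJarid2, 594 in shsuz12 and 1108 in pLKO. Of the 10 markers, 1 rose and 8 fell in shPALI1, 2 rose and 6 fell in shG9a, 6 rose and 2 fell in shJarid2, and 1 rose and 7 fell in shsuz12. Over all 12715 tested genes, 16.5% rose and 25.1% fell in shPALI1, and 18.4% and 24.7% in shG9a. The shares were 23.8% and 27.2% in shJarid2, and 21.1% and 32.8% in shsuz12. Of 17 markers of immune, endothelial, fibroblast, basal and neuroendocrine cells, 6 were tested; the 17 summed to 10.8 to 11.0 RPKM in shPALI1, 12.3 to 13.4 in shG9a, 10.9 to 13.7 in shJarid2, 12.9 to 14.0 in shsuz12 and 8.66 to 10.4 in pLKO, with CD3E at 0 in every library. Of the 6 tested, 2 rose and 2 fell in shPALI1, 3 rose and 1 fell in shG9a, 4 rose and 2 fell in shJarid2, and 1 rose and 0 fell in shsuz12. Neither marker list was tested against the shares over all tested genes given above. The basal keratin KRT14 rose in shJarid2 to 4.02 RPKM against 0.361 RPKM in pLKO (limma adjusted p = 6.2e-08). KRT14 reached 1 RPKM, the level needed for a test, only in shJarid2, so that p value adds no support. The basal markers KRT5 and TP63 were at 0 in every shJarid2 library. The neuroendocrine marker SYP rose in shsuz12 to 4.88 RPKM against 0.66 RPKM in pLKO (limma adjusted p = 6.4e-09). SYP reached 1 RPKM only in shsuz12 and shG9a, where it also rose, so its p value adds no support. CHGA, the other neuroendocrine marker, was at most 0.0758 RPKM in shsuz12. Of the fibroblast collagens, COL3A1 rose in shPALI1 to 2.02 RPKM against 0.279 RPKM in pLKO (1.8e-07), and COL1A1 fell in shJarid2 to 1.41 RPKM against 4.52 RPKM in pLKO (2.5e-07). COL3A1 reached 1 RPKM only in shPALI1, so its p value there adds no support. In that same group COL1A1 fell, to 3.13 RPKM (limma adjusted p = 0.0039), and COL1A2 was at most 0.0269 RPKM. The part of either marker list in the results below was not tested. In bulk RNA, fewer cells of a type and less RNA per cell cannot be told apart. Replicates of a group correlated at r = 0.994 to 0.996 across genes, apart from shJarid2 replicate 3, at 0.989 and 0.991 with the other shJarid2 libraries; values of the chosen genes are given without it as well.

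ATP1B1 was the subunit with the widest spread between groups. Its level was 385, 346 and 357 RPKM in the shPALI1 libraries, 105, 106 and 109 RPKM in shG9a, 58.0, 50.1 and 57.2 RPKM in shJarid2, 207, 227 and 218 RPKM in shsuz12, and 342, 379 and 343 RPKM in pLKO. All shJarid2, shG9a and shsuz12 libraries lay below every pLKO library, whereas the shPALI1 and pLKO libraries overlapped. Such a gap between the libraries of both groups was common, seen for 58.3% of the 12715 tested genes in shG9a, 51.2% in shJarid2 and 63.1% in shsuz12. The order from low to high was shJarid2, shG9a, shsuz12, then pLKO and shPALI1, and every neighbouring pair but the last was apart. On average ATP1B1 was at 102% of the pLKO level in shPALI1, 30.1% in shG9a, 15.6% in shJarid2 and 61.3% in shsuz12. The log2(RPKM + 1) difference from pLKO was 0.03 in shPALI1, -1.72 in shG9a, -2.66 in shJarid2 and -0.70 in shsuz12, each with a standard error of 0.07 from the fit over all libraries. It was -2.69 without shJarid2 replicate 3. All 4 comparisons use the same pLKO libraries.

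**Figure D1:**
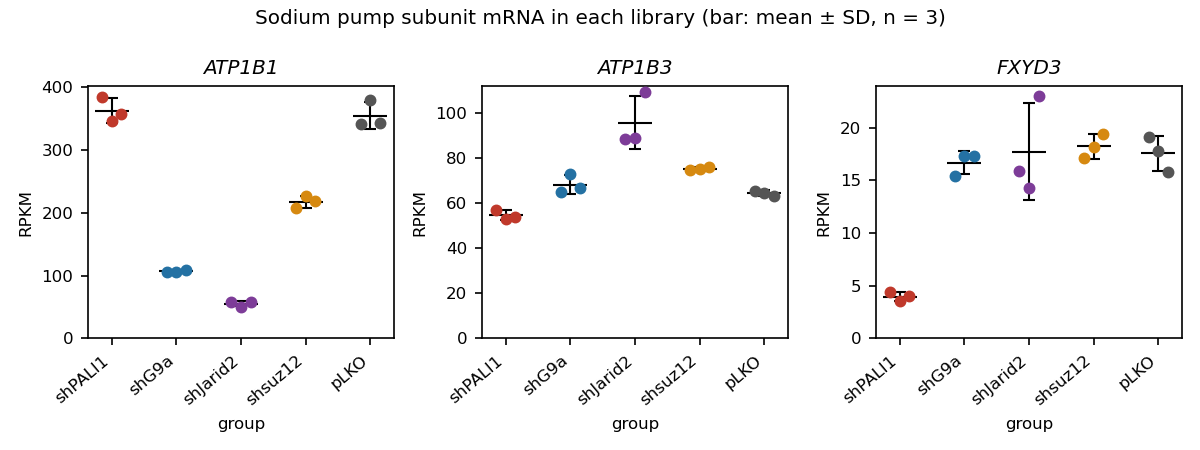
RPKM of ATP1B1, ATP1B3 and FXYD3 in each of the 15 libraries, 1 panel per gene with groups along the x axis and RPKM, from 0, on the y axis. Points are libraries and bars give the mean ± SD of 3. ATP1B1 is lowest in shJarid2 (50.1 to 58.0 RPKM), FXYD3 is lowest in shPALI1 (3.56 to 4.36 RPKM), and 1 shJarid2 library sits above the other 2 for ATP1B3 (109 RPKM) and FXYD3 (23.0 RPKM).

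In pLKO cells ATP1B1 ranked 68 from the top among all genes by mean RPKM, so the loss of signal concerned one of the more abundant mRNAs of this line. Its rank from the top was 67 in shPALI1, 344 in shG9a, 1073 in shJarid2 and 111 in shsuz12. Among the 12715 tested genes, those reaching 1 RPKM in 3 or more libraries, the ATP1B1 difference in shJarid2 was the lowest of all on the log2(RPKM + 1) scale, below that of JARID2 itself at -1.90. With a pseudocount of 0.1 it stood 44 from the lowest, and after rescaling to TPM it stood 6 from the lowest. Its difference in shG9a was 18 from the lowest, 101 with a pseudocount of 0.1 and 50 in TPM. In shsuz12 it was 1166 from the lowest. Since ATP1B1 was picked for such values, these ranks describe it and support nothing further.

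ATP1B1 shares its end with another gene. The last 192 bases of the ATP1B1 locus overlap NME7, which lies on the opposite strand and encodes a nucleoside diphosphate kinase family protein of the γ-tubulin ring complex; exons of both genes are involved. NME7, singled out after its values were seen, was at 25.2 ± 0.438 RPKM in shPALI1, 10.3 ± 0.54 in shG9a, 8.98 ± 0.583 in shJarid2, 10.6 ± 0.864 in shsuz12 and 15.7 ± 0.425 in pLKO (mean ± SD, n = 3 each). It rose in shPALI1 (log2 difference 0.65, limma adjusted p = 3.9e-06) and fell in shG9a (-0.57, adjusted p = 1.4e-05), shJarid2 (-0.74, adjusted p = 6.5e-07) and shsuz12 (-0.53, adjusted p = 1.7e-05), with a standard error of 0.07 each. The sources do not say that counting used the strand, so reads from the shared stretch cannot be told apart.

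ATP1B3 varied less between groups and was highest where ATP1B1 was lowest. It was at 57.1, 52.9 and 53.8 RPKM in the shPALI1 libraries, 64.8, 72.8 and 66.6 RPKM in shG9a, 88.5, 88.9 and 109 RPKM in shJarid2, 74.4, 75.0 and 75.9 RPKM in shsuz12, and 65.5, 64.5 and 63.1 RPKM in pLKO. The shJarid2 and shsuz12 libraries lay above pLKO, the shPALI1 libraries lay below it, and the shG9a libraries overlapped with it. From low to high the order was shPALI1, pLKO, shG9a, shsuz12 and shJarid2, and pLKO and shG9a were the one neighbouring pair whose ranges overlapped. In shPALI1, 54.5% of tested genes had libraries apart from pLKO in this way. The log2(RPKM + 1) difference was -0.23 in shPALI1, 0.08 in shG9a, 0.56 in shJarid2 and 0.22 in shsuz12, each with a standard error of 0.08. Without shJarid2 replicate 3, the highest of the shJarid2 libraries, the shJarid2 difference was 0.46. In TPM it was 0.20 in shG9a and 0.36 in shsuz12. Among tested genes the shJarid2 difference stood 1359 from the highest.

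The makeup of β subunit mRNA therefore differed between groups. RPKM is scaled to gene length, so levels of both genes can be set side by side; ATP1B2 and ATP1B4, the remaining β genes, stayed at or under 0.192 RPKM. ATP1B1 made up 86.9% ± 0.2 of the summed RPKM of ATP1B1, ATP1B2 and ATP1B3 in shPALI1, 61.1% ± 1.63 in shG9a, 36.7% ± 2.66 in shJarid2, 74.3% ± 0.764 in shsuz12 and 84.6% ± 0.764 in pLKO (mean ± SD, n = 3 each). ATP1B3 was thus the more abundant β mRNA in shJarid2 cells, at 60.4% to 65.6% of the sum in the 3 libraries, and the less abundant one in every other library, pLKO included. The summed β level was 417 ± 22.3 RPKM in shPALI1, 175 ± 4.16 in shG9a, 151 ± 13.9 in shJarid2, 293 ± 10.1 in shsuz12 and 419 ± 21.1 in pLKO. Without shJarid2 replicate 3 the sum was 139 and 147 RPKM in the remaining shJarid2 libraries and the ATP1B1 share 36.0% and 39.6%. In RPKM the gain of ATP1B3 in shJarid2 cells, 95.5 against 64.4 in pLKO, was small beside the deficit of ATP1B1, 55.1 against 354 in pLKO.

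**Figure D2:**
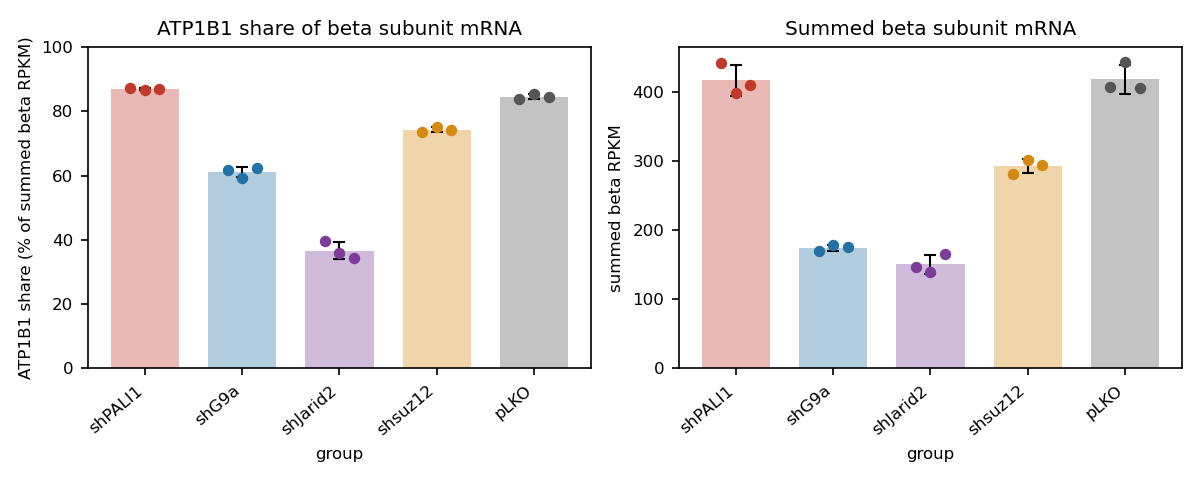
Left, ATP1B1 as a percentage of the summed RPKM of ATP1B1, ATP1B2 and ATP1B3; right, that sum in RPKM. Bars are means of 3 libraries, points are libraries and error bars are SD. The share is 36.7% in shJarid2 and 84.6% in pLKO, and the sum is 175 RPKM in shG9a and 151 RPKM in shJarid2 against 419 RPKM in pLKO.

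**Figure D3:**
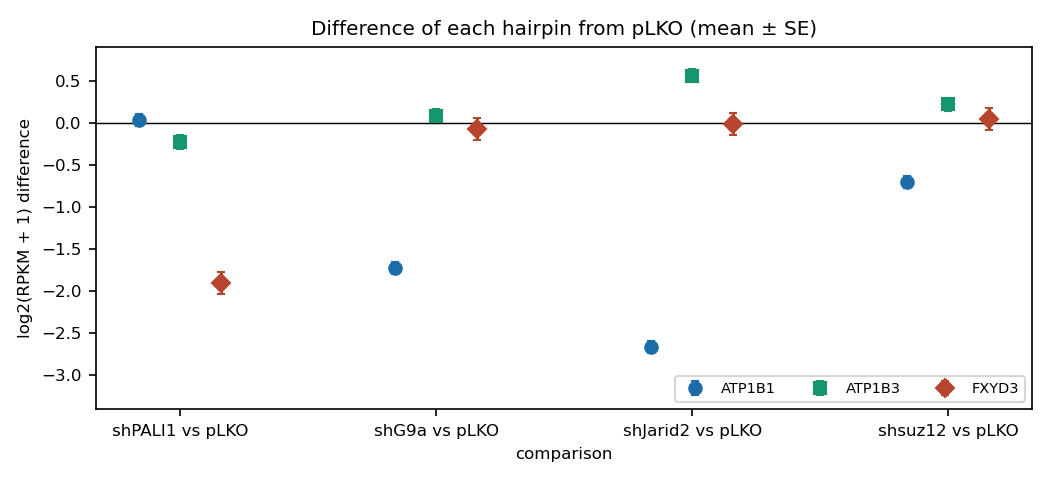
Difference of each hairpin from pLKO in mean log2(RPKM + 1), with the standard error of the fit, for ATP1B1, ATP1B3 and FXYD3 (y axis), by comparison (x axis). ATP1B1 lies at -1.72 in shG9a and -2.66 in shJarid2, where ATP1B3 and FXYD3 lie between -0.07 and 0.56; in shPALI1 it is FXYD3 (-1.90) that lies lowest.

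FXYD3, the third chosen gene, was low in shPALI1 cells. Its level was 4.36, 3.56 and 3.98 RPKM in the shPALI1 libraries, 15.4, 17.3 and 17.3 RPKM in shG9a, 15.9, 14.3 and 23.0 RPKM in shJarid2, 17.1, 18.2 and 19.4 RPKM in shsuz12, and 19.1, 17.8 and 15.8 RPKM in pLKO. The shPALI1 libraries stood below every other library, and the ranges of the other 4 groups ran into each other. Libraries of shPALI1 and pLKO were apart for 54.5% of the 12715 tested genes. The log2(RPKM + 1) difference was -1.90 in shPALI1, -0.07 in shG9a, -0.01 in shJarid2 and 0.05 in shsuz12, each with a standard error of 0.13. The shPALI1 difference was -2.12 with a pseudocount of 0.1 and -2.05 in TPM, and it stood 12 from the lowest of 12715 tested genes (52 with a pseudocount of 0.1, 28 in TPM). The shsuz12 difference was 0.19 in TPM. In shJarid2, 1 library of 3 was high, the coefficient of variation was 26.3%, and the difference was -0.20 without replicate 3. The small FXYD3 differences changed sign between settings: shG9a stood at 0.05 in TPM, shJarid2 at 0.03 with median ratio scaling, and shsuz12 at -0.02 without pLKO replicate 3.

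FXYD3 was the least abundant of the chosen genes, and depth bears on it most. The shPALI1 libraries held an estimated 46, 49 and 54 reads per kb of gene model, against 184 to 283 in pLKO. FXYD3 overlaps MIR6887 and a protein-coding readthrough gene, AC020907.6, on its own strand, and reads of these cannot be kept apart from its own.

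The other FXYD and β genes were near the floor of the assay. Of 9 further Na,K-ATPase subunit genes read from the table, 0 reached 1 RPKM in the 3 or more libraries needed for a test. The catalytic gene ATP1A4, the β gene ATP1B2 and the FXYD genes FXYD1, FXYD6 and FXYD7 had values above 0 in some libraries, at most 0.348 RPKM. ATP1B4, FXYD2 and FXYD4 were listed at 0 in all 15 libraries. FXYD2 and FXYD6 share exons with the readthrough gene FXYD6-FXYD2, which has its own row, also listed at 0 in all 15, so how shared reads were assigned cannot be told apart. FXYD5, encoding dysadherin, a FXYD protein known for weakening cell adhesion, was at 0.521, 0.40 and 0.534 RPKM in shPALI1, 0.404, 0.241 and 0.469 in shG9a, 0.309, 0.333 and 0.491 in shJarid2, 0.284, 0.181 and 0.305 in shsuz12, and 1.14, 1.07 and 0.944 in pLKO. Every hairpin library was below every pLKO library, at 2 to 7 estimated reads per kb in the hairpin libraries against 11 to 17 in pLKO. Groups were apart from pLKO for 51.2% to 63.1% of the tested genes, which leave out FXYD5. With no filter on low values, FXYD5 passed as lower in limma in shPALI1 (-0.47, adjusted p = 0.00055), shG9a (-0.58, adjusted p = 9.7e-05), shJarid2 (-0.58, adjusted p = 7.1e-05) and shsuz12 (-0.71, adjusted p = 1.3e-05). In that fit 3171 of 22023 genes fell in shPALI1, 3111 in shG9a, 3668 in shJarid2 and 4134 in shsuz12. All comparisons share the same pLKO libraries, so these FXYD5 calls are not independent. FXYD5 lies close to FXYD3, at chr19:35154730-35169883, and the pair were both lower than pLKO in shPALI1, where FXYD5 was at 46.1% and FXYD3 at 22.6% of its pLKO level. FXYD5 was at 35.3% of its pLKO level in shG9a, 35.9% in shJarid2 and 24.4% in shsuz12, and FXYD3 at 95.2% in shG9a, 101% in shJarid2 and 104% in shsuz12.

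Genes that use the gradients of the pump, or act on it, were read from 4 lists, and in the 4 comparisons the split of calls differed from list to list. The lists were drawn up with earlier results of these data known. Genes named from them were picked by their p values in these same libraries, so those p values describe the picked genes. The other cation pumps, that is the proton-potassium and calcium pumps, had 7 of 12 genes tested. In shG9a 4 rose and 1 fell, with a median log2 difference of 0.40 against -0.04 over all tested genes; 18.4% of all tested genes rose and 24.7% fell in that comparison. In shPALI1 0 rose and 2 fell in limma (median -0.13; 0 were higher at an unadjusted p under 0.05), where 16.5% of all tested genes rose and 25.1% fell. In shJarid2 2 rose and 2 fell (median -0.17), against 23.8% of tested genes that rose and 27.2% that fell. In shsuz12 0 rose and 1 fell in limma (median -0.08; 1 was higher at an unadjusted p under 0.05), where 21.1% of all tested genes rose and 32.8% fell.

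ATP2C1 and ATP2C2 encode the calcium and manganese pumps of the Golgi. ATP2C1 fell to 7.19 ± 0.143 RPKM in shPALI1 (adjusted p = 3.4e-07) and 9.74 ± 0.556 RPKM in shsuz12 (adjusted p = 1.3e-05), against 16.7 ± 1.61 RPKM in pLKO, and it rose in shG9a to 23.1 ± 1.32 RPKM (adjusted p = 0.00097). ATP2C2 rose in shJarid2 to 27.2 ± 0.633 RPKM (adjusted p = 4e-08) and in shG9a to 19.6 ± 1.62 RPKM (adjusted p = 1.9e-05), and fell in shPALI1 to 8.76 ± 0.308 RPKM (adjusted p = 3.7e-05), against 13.0 ± 0.545 RPKM in pLKO (limma, mean ± SD, n = 3 each). Of the plasma membrane calcium pumps, ATP2B1 fell in shG9a (10.8 against 14.2 RPKM in pLKO, adjusted p = 0.006) and ATP2B4 fell in shJarid2 (7.60 against 11.1 RPKM in pLKO, adjusted p = 0.0083). The ATP2B1 call did not hold in TPM (adjusted p = 0.13), nor the ATP2B4 call with the 6 libraries of that comparison alone (adjusted p = 0.071). The ATP2B4 difference was -0.52 on the log2 scale with all libraries and -0.29 without shJarid2 replicate 3, and still passed. ATP2B4 also passed as higher in shG9a (15.2 RPKM, adjusted p = 0.031), a call lost without any 1 of the 6 libraries of that comparison. The rise of ATP2C1 in shJarid2 (20.3 ± 2.48 against 16.7 ± 1.61 RPKM in pLKO, adjusted p = 0.021) was lost in TPM (adjusted p = 0.11), with those 6 libraries alone (0.12), and without shJarid2 replicate 1 (0.083) or 2 (0.084) or pLKO replicate 1 (0.087) or 3 (0.061). The shJarid2 count of 4 calls was 1 with those 6 libraries alone, 2 in TPM, 2 without shJarid2 replicate 2 and 2 without pLKO replicate 3, and the shsuz12 count of 1 was 3 with median ratio scaling and 2 in TPM.

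**Figure D4:**
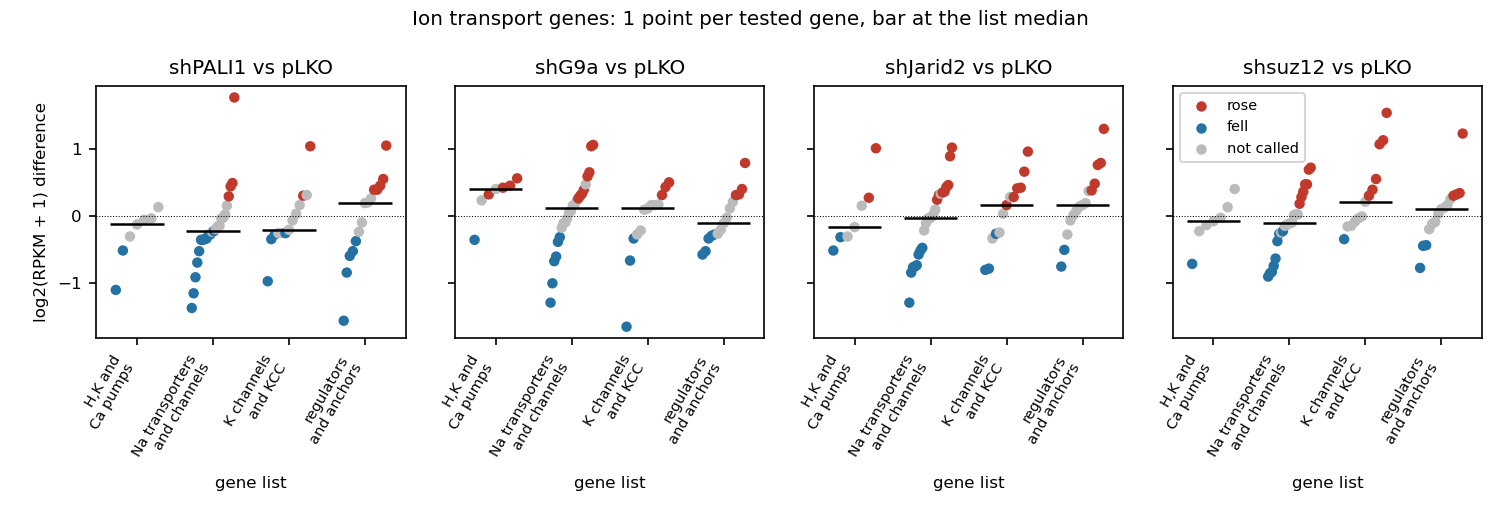
Each point is 1 tested gene of 4 ion transport lists, placed by its log2(RPKM + 1) difference from pLKO (y axis), 1 panel per hairpin; red rose, blue fell and grey did not pass at a limma adjusted p of 0.05, and the bar is the list median. Among sodium transporters and channels, 4 rose and 12 fell in shPALI1 and 8 rose and 6 fell in shG9a; among potassium channels, 6 rose and 1 fell in shsuz12. Of all tested genes, 16.5% rose and 25.1% fell in shPALI1, 18.4% and 24.7% in shG9a, and 21.1% and 32.8% in shsuz12.

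Sodium-coupled transporters and sodium channels, which let sodium back in, had 24 of 34 genes tested. In shPALI1 4 rose and 12 fell (median -0.23, against -0.052 over all tested genes), in shG9a 8 rose and 6 fell (0.11 against -0.04), in shJarid2 8 rose and 8 fell (-0.03 against -0.038), and in shsuz12 7 rose and 8 fell (-0.11 against -0.078). Of all tested genes, 16.5% rose and 25.1% fell in shPALI1, and 18.4% and 24.7% in shG9a. The shares were 23.8% and 27.2% in shJarid2, and 21.1% and 32.8% in shsuz12. SCNN1A, the α subunit of the epithelial sodium channel, rose in shJarid2 to 44.8 ± 1.17 RPKM (adjusted p = 2.8e-08) and in shsuz12 to 36.0 ± 0.98 RPKM (adjusted p = 7.6e-07), against 21.5 ± 1.51 RPKM in pLKO. It also rose in shG9a, to 34.2 ± 1.94 RPKM (3.7e-06), and fell in shPALI1, to 17.5 ± 1.01 RPKM (limma adjusted p = 0.0038).

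Among carriers, SLC1A5, the sodium-dependent glutamine transporter ASCT2, fell in shPALI1 to 16.6 ± 1.25 RPKM (log2 difference -1.38, adjusted p = 6.1e-08) and in shsuz12 to 24.2 ± 1.72 RPKM (-0.86, adjusted p = 3.5e-06), against 44.8 ± 3.92 RPKM in pLKO (limma). It rose in shJarid2 to 57.2 ± 6.08 RPKM (adjusted p = 0.0065). SLC34A2, a sodium-phosphate cotransporter of epithelia, rose in shPALI1 to 2.57 ± 0.306 RPKM against 0.0476 ± 0.0116 RPKM in pLKO (adjusted p = 6.7e-09). Only the shPALI1 libraries brought SLC34A2 to the 1 RPKM needed for a test, with means of at most 0.0623 RPKM under the other hairpins. Its p value therefore adds no support to the rise. SLC20A2, another phosphate carrier, rose in shG9a to 12.9 ± 0.684 RPKM (adjusted p = 8.7e-08) and in shPALI1 to 8.07 ± 0.145 RPKM (0.00028), against 5.68 ± 0.501 RPKM in pLKO. The taurine transporter SLC6A6 fell in shJarid2 to 1.34 ± 0.276 RPKM against 4.75 ± 0.313 RPKM in pLKO (adjusted p = 7e-08). It also fell in shPALI1 (3.55 RPKM, 0.01), shG9a (2.78 RPKM, 0.00014) and shsuz12 (3.79 RPKM, 0.026), the shPALI1 call being lost in TPM and the shsuz12 call with median ratio scaling, in TPM and with some single libraries left out. SLC9A7, an organelle sodium-proton exchanger, fell in shG9a to 3.70 ± 0.261 RPKM against 6.52 ± 0.237 RPKM in pLKO (adjusted p = 2.5e-06). It also fell in shPALI1 (4.19 RPKM, 2.3e-05), and it rose in shsuz12 (8.16 RPKM, 0.0026) and in shJarid2 (7.92 RPKM, 0.0071), the last call being lost in TPM and with the 6 libraries alone.

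Potassium channels and potassium-chloride cotransporters, through which potassium leaves the cell, had 13 of 33 genes tested. In shsuz12 6 rose and 1 fell (median 0.21) and in shJarid2 6 rose and 3 fell (0.16), whereas in shG9a 3 rose and 3 fell (0.11) and in shPALI1 2 rose and 4 fell (-0.21). Of all tested genes, 21.1% rose and 32.8% fell in shsuz12 (median -0.078), and 23.8% and 27.2% in shJarid2 (-0.038). The shares were 18.4% and 24.7% in shG9a (-0.04), and 16.5% and 25.1% in shPALI1 (-0.052). KCNN2, a small-conductance calcium-activated channel, fell in shG9a to 15 ± 0.457 RPKM (log2 difference -1.66, adjusted p = 2.5e-10) and in shPALI1 to 24.6 ± 1.47 RPKM (-0.98, adjusted p = 1.8e-08), against 49.5 ± 1.02 RPKM in pLKO (limma). In shJarid2 it passed as higher (55.4 RPKM, adjusted p = 0.035), but not in TPM, with the 6 libraries alone, or without shJarid2 replicate 2 or 3 or pLKO replicate 2 or 3. KCNJ3, an inward rectifier opened by G proteins, rose in shPALI1 to 6.66 ± 0.507 RPKM (adjusted p = 3.4e-07), in shJarid2 to 3.96 ± 0.431 RPKM (0.00091) and in shsuz12 to 6.80 ± 0.406 RPKM (1.7e-07), against 2.72 ± 0.301 RPKM in pLKO. KCNMA1, the large-conductance calcium-activated channel, fell in shG9a to 6.03 ± 0.147 RPKM (adjusted p = 0.00018) and in shJarid2 to 5.44 ± 1.19 RPKM (1.9e-05) and rose in shsuz12 to 15.4 ± 0.53 RPKM (0.00055), against 10.2 ± 0.319 RPKM in pLKO.

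The leak channel KCNK1 rose in shJarid2 to 8.43 ± 1.39 RPKM (adjusted p = 3.4e-06) and in shG9a to 5.82 ± 0.519 RPKM (0.0014), against 3.82 ± 0.469 RPKM in pLKO (limma). In shPALI1 it passed as lower (2.95 RPKM, adjusted p = 0.04), a call lost with each single library left out except pLKO replicate 3. In shsuz12 the voltage-gated channel KCND3 rose to 4.27 ± 0.163 RPKM against 0.834 ± 0.339 RPKM in pLKO (adjusted p = 1.5e-05). SLC12A7, a potassium-chloride cotransporter, fell in shPALI1 to 14.8 ± 0.591 RPKM (0.0092) and rose in shJarid2 to 22 ± 0.955 RPKM (0.0042) and in shsuz12 to 22.3 ± 0.482 RPKM (0.0026), against 18.0 ± 1.51 RPKM in pLKO. The shPALI1 count of 6 calls was 3 without pLKO replicate 1, and the shsuz12 count of 7 was 4 among genes with a mean RPKM of at least 3.

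Regulators and anchors of the pump, the kinases, hormone receptors, ligases and membrane skeleton proteins that act on it or on its partner channels, had 15 of 27 genes tested. In shPALI1 5 rose and 5 fell (median 0.19), in shG9a 4 rose and 5 fell (-0.11), in shJarid2 5 rose and 2 fell (0.16) and in shsuz12 4 rose and 3 fell (0.10). Of all tested genes, 16.5% rose and 25.1% fell in shPALI1 (median -0.052), and 18.4% and 24.7% in shG9a (-0.04). The shares were 23.8% and 27.2% in shJarid2 (-0.038), and 21.1% and 32.8% in shsuz12 (-0.078). STK39, the kinase SPAK that acts on chloride cotransporters, fell in shPALI1 to 35.8 ± 0.483 RPKM (adjusted p = 7.7e-08) and rose in shG9a to 114 ± 4.38 RPKM (1.8e-07) and in shJarid2 to 85.2 ± 4.73 RPKM (0.0001), against 65.4 ± 1.43 RPKM in pLKO (limma). Its sister kinase OXSR1 fell in shJarid2 to 10.4 ± 2.14 RPKM against 18.0 ± 1.03 RPKM in pLKO (3.3e-05). In shG9a it passed as higher (22.6 RPKM, 0.026), a call lost with each single library left out except pLKO replicate 2. HSD11B2, which inactivates cortisol and so keeps it off the mineralocorticoid receptor, fell in shPALI1 to 6.79 ± 0.524 RPKM (6.6e-08) and in shsuz12 to 15.9 ± 0.259 RPKM (0.0027) and rose in shJarid2 to 38.4 ± 5.16 RPKM (4e-05), against 22.2 ± 1.84 RPKM in pLKO. NR3C2, the mineralocorticoid receptor itself, rose in shPALI1 to 5.40 ± 0.254 RPKM against 2.10 ± 0.201 RPKM in pLKO (6.8e-06). In shG9a it passed as lower (1.51 RPKM, 0.049), a call lost without any 1 of the 6 libraries.

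NEDD4L, a ubiquitin ligase for the epithelial sodium channel, fell in shsuz12 to 16.8 ± 0.95 RPKM (limma adjusted p = 7.6e-06) and in shPALI1 to 19.2 ± 0.998 RPKM (0.00014), against 29.5 ± 1.84 RPKM in pLKO. In shG9a it passed as lower (24.1 RPKM, 0.022), but not with median ratio scaling, in TPM or with some single libraries left out. SGK2, a kinase related to the aldosterone-induced SGK1, rose in shJarid2 to 2.14 ± 0.658 RPKM (5.5e-06) and in shsuz12 to 1.95 ± 0.366 RPKM (9e-06), against 0.254 ± 0.0907 RPKM in pLKO. SGK2 reached the 1 RPKM needed for a test only under these hairpins, so its p values add no support. The kinase SRC, which is known to bind the α subunit, fell in shG9a to 10.3 ± 0.271 RPKM (0.004) and rose in shsuz12 to 16.6 ± 0.981 RPKM (0.0072), against 13.4 ± 1.96 RPKM in pLKO. The shG9a count of 9 calls was 5 without shG9a replicate 3 and 5 without pLKO replicate 3, and the shJarid2 count of 7 was 4 among genes with a mean RPKM of at least 3.

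Genes with a pattern like that of each subunit were ranked by the root mean square difference of log2(RPKM + 1) minus the pLKO mean, over the 12 hairpin libraries, among 9202 genes. This distance depends on the size of the changes. ATP1B1 was picked for extreme values, so a large distance to other genes was to be had from the choice itself. Nearest to ATP1B1 were SIPA1L2, a regulator of the small GTPase Rap, at 0.67, FYTTD1, an mRNA export adaptor, at 0.69, and AK4, a mitochondrial adenylate kinase, at 0.71. AK4 was at -2.24 in shJarid2, close to ATP1B1, but at -1.01 in shPALI1, where ATP1B1 was at 0.03. Nearest to ATP1B3, whose changes were small, were GRINA at 0.07, PIGP, part of the enzyme that starts GPI anchor synthesis, at 0.08, and NUMA1, a spindle protein, at 0.09. FXYD3 was nearest to APP, the amyloid precursor protein, at 0.28, DCAF6 at 0.33 and ATP8B1, a phospholipid flippase, at 0.34. APP was at 46.4 RPKM in shPALI1 and 121 to 130 RPKM under the other 3 hairpins, against 151 RPKM in pLKO, and ATP8B1 at 4.92 RPKM in shPALI1 and 16.6 to 17.4 RPKM under the other 3, against 15.8 RPKM in pLKO. These distances describe likeness of level changes in 12 libraries that share 1 pLKO baseline. Since they depend on the size of the changes, they cannot be compared between the subunits.

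**Figure D5:**
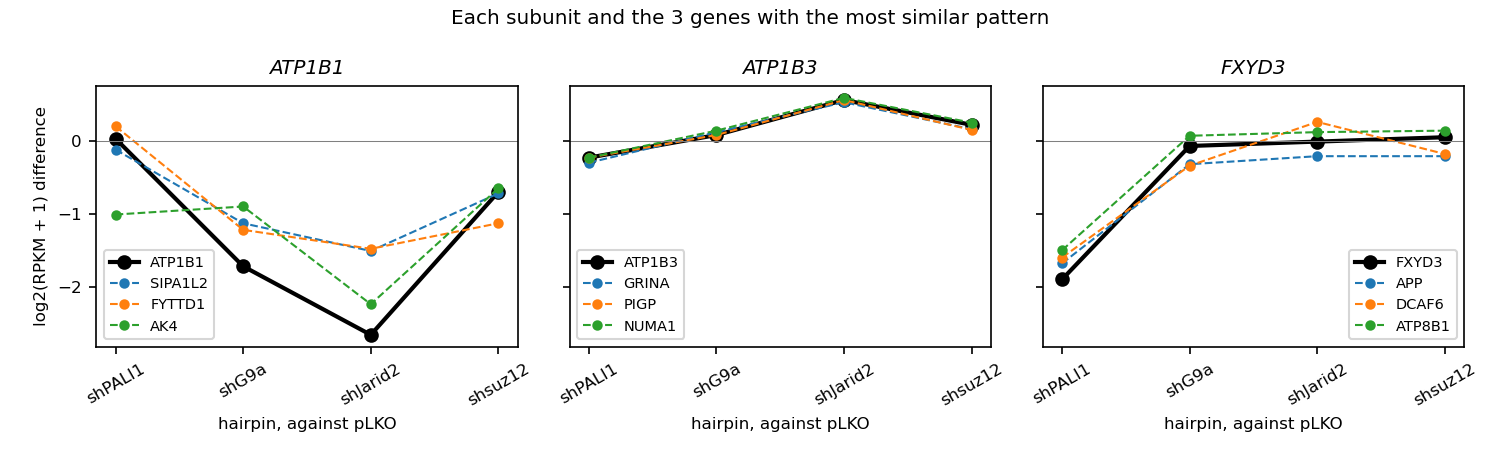
Log2(RPKM + 1) difference from pLKO (y axis) under each hairpin (x axis) for each subunit, in black, and the 3 genes of most similar pattern, in colour. For ATP1B3 the lines nearly coincide (root mean square difference 0.07 to 0.09), while the ATP1B1 line reaches -2.66 in shJarid2, below its neighbours at -1.48 to -2.24.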

How the data were processed

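RNA of 15 LNCaP libraries in 5 groups of 3 had been sequenced after NEBNext Ultra library preparation, per the labels' protocols. The authors deposited 1 table of RPKM values (reads scaled to gene length and to library size), aligned with STAR to hg38 per the submitters' processing notes, with its version, the counter, the strand setting and the annotation not given in the sources used here. Of 26475 names, 26443 carried values. Groups were taken from the labels.

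Each hairpin was compared with pLKO with limma 3.58.1 in R 4.3.3: log2(RPKM + 1), genes reaching 1 RPKM in 3 or more libraries (12715), group as the term over all 15 libraries, mean-variance trend, two-sided, Benjamini-Hochberg adjustment over all tested genes, threshold 0.05. A difference on this scale understates the change of low genes. ATP1B1, ATP1B3 and FXYD3 passed this filter (3 of 3). Values of 1 read in short RNA genes gave the depth, 10.56 to 19.33 M reads; with it, 79.4% to 83.2% of values under 50 reads in these genes lay within 0.05 of a whole number. Reads per kb are RPKM times this estimate, and no count test was run. The procedure was tested on simulated data. The 3 genes and all gene lists were chosen with earlier results of these data known. Named besides them are further Na,K-ATPase subunits, the targeted genes, the 3 genes of smallest p per list and comparison whose higher group averaged 2 RPKM or more, and the 3 nearest patterns per subunit; some genes that this rule names are not reported here. The calls of such a gene in other comparisons are given beside it, and the cell type markers given with values were chosen after their values were seen. Alternatives were a pseudocount of 0.1, no filter, a filter at a mean of 3 RPKM, median ratio scaling, TPM, the 6 libraries of a comparison alone, a replicate block, and each library left out. Promoters came from RefSeq. Tables used Python 3.11.15 with pandas 2.3.3 and numpy 2.4.6, and plots matplotlib 3.10.9.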

Additional observations from a re-analysis of the deposited data

How the results depend on the processing

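No limma call given for NME7, the targeted genes or the genes of the 4 ion transport lists changed direction in any alternative run; calls of the cell type markers were not rerun, and FXYD5 was tested without a filter only. Differences near 0 crossed it for ATP1B1 in shPALI1 (-0.01 without shPALI1 replicate 1) and for FXYD3 in shG9a (0.05 in TPM), shJarid2 (-0.20 to 0.12 with a library left out) and shsuz12 (-0.02 without pLKO replicate 3). List counts, calls over all genes and values of the chosen genes stayed close in 419 combinations of result and setting and moved in 25. Close was a wide class: 4 potassium channel calls with median ratio scaling in shPALI1, against 6 reported, fell within it. Some of the 419 could not move. With a filter, 0 further Na,K-ATPase subunits were tested, so their count stayed 0. Differences between group means of the chosen genes are the same with the 6 libraries alone or a replicate block. The 419 therefore do not measure how stable the results are. Without a filter, 1 of the 9 further subunits, FXYD5, passed in each of shPALI1, shG9a, shJarid2 and shsuz12, where 0 were tested with it. FXYD3 in shPALI1 was -2.12 with a pseudocount of 0.1 and -2.05 in TPM. In TPM, ATP1B1 was -1.61 in shG9a and -0.57 in shsuz12, ATP1B3 0.20 and 0.36 there, and FXYD3 0.19 in shsuz12; median ratio scaling gave -0.59 for ATP1B1 and 0.33 for ATP1B3 in shsuz12. The other cation pumps had 2 calls in TPM and 1 with the 6 libraries alone in shJarid2, and 3 with median ratio scaling, 2 in TPM and 2 with the 6 libraries alone in shsuz12. With a mean RPKM of at least 3, regulators had 4 calls in shJarid2 and potassium channels 4 in shsuz12, since fewer genes were tested. With each library left out in turn, calls ranged from 3 to 6 for potassium channels in shPALI1, from 5 to 7 for regulators in shG9a and from 2 to 4 for the other cation pumps in shJarid2. The causes of the other moves were not tested.

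TPM moved the median of all genes to 0.062 in shG9a and 0.036 in shsuz12, against -0.04 and -0.078 in RPKM. In shG9a, 3126 genes then rose and 2278 fell (57.8% of calls rose), against 2338 and 3139 (42.7%). In shsuz12, 3413 rose and 3026 fell in TPM (53.0%) and 3416 rose and 3289 fell with median ratio scaling (50.9%), against 2683 and 4171 (39.1%). No pairing by replicate number was seen between hairpin and pLKO libraries. Deviations from the group means correlated at -0.26 to 0.13 between same-numbered libraries, and the own number was best in 3 of 12 cases. With 3 libraries per group this check is weak and cannot exclude pairing. With a replicate block, 2045 genes rose and 3072 fell in shPALI1, 2271 and 3023 in shG9a, 2954 and 3413 in shJarid2, and 2619 and 4077 in shsuz12; no list count moved by over 1.5 times. Low depth limits FXYD5 and the unfiltered subunits most.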
